A study of Homo sapiens with 16 samples.

Results

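The transcriptome of induced cells was set against that of cells on an actuated chip without the induction label, with 4 libraries on each side of the 16 in the series. The cells are Caco-2, which were derived from a human colon carcinoma and form a polarised intestinal epithelium, and they grew on a villus-on-chip with magnetic actuation. The induced libraries are the table coded IBD, labelled as an induction of inflammatory bowel disease, and the others are VOS2, 1 of 2 tables from swinging chips. No label ties VOS2 to the physiological or the pathological swing. What was used for the induction, how much of it and for how long, is not stated in the labels. In the series design the induced group is called IBD-VOS. It is not stated whether its chips swung, so induction and swing regime cannot be told apart in the comparison below. Libraries are called IBD 1 to 4 and VOS2 1 to 4 after their column names. The 8 libraries were those whose column names carry these 2 codes, and the 2 tables were joined on gene symbol, which gave 61228 gene rows of which 14322 had enough counts to be tested. Replicates are described as biological, although separate cultures or chips are nowhere stated. The p-values therefore measure the spread between these libraries, which may be partly technical. Caco-2 is a single tumour line with no immune or stromal cells of its own.

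Library totals ran from 15078620 to 20609117 counts, and mitochondrial genes took 5.62% to 6.94% of them. All 15 epithelial markers had enough counts to be tested, and their summed count after scaling to library size (CPM) was 11251 to 12253 in IBD and 11698 to 13704 in VOS2. Of 18 leukocyte markers 11 were below 1 CPM in all 8 libraries, among them CD3E, and 8 of 13 fibroblast and 9 of 12 endothelial markers were too, among them DCN, CDH5 and FLT1, none of which overlaps another gene. The summed level of the tested leukocyte markers was 40.5 to 43.3 CPM in IBD and 22.3 to 26.8 CPM in VOS2, and 23.1 to 27.2 CPM of the IBD sum was LYZ, which encodes lysozyme and is also expressed by epithelium. Of the 5 tested, LYZ rose and CD14 fell past an edgeR adjusted p of 0.05. Over all tested genes 2.79% rose and 2.62% fell past it. CD14 was lower in every IBD library than in any VOS2 library. It no longer passed without IBD 3, IBD 4, VOS2 1, VOS2 3 or VOS2 4 and without IBD 3 and 4 together. The part of other cell types in the results below was not tested, and in bulk RNA a change in the share of cells and one in RNA per cell cannot be told apart. Tested fibroblast markers summed to 40.7 to 60.6 CPM in IBD and 39.7 to 54.2 CPM in VOS2, and endothelial ones to 17.9 to 26.5 and 20.3 to 21.2 CPM. Of 5 tested fibroblast markers LUM fell past the same threshold, and none of 3 endothelial ones passed it. Both tables were counted over whole gene bodies, and genes that overlap a neighbour can then be left without reads. In all, 903 genes had at most 10 counts in each of the 8 libraries but at least 100 in every library of the other swing table, VOS1, and 853 of them overlap another gene in GENCODE v29. Among members of the gene lists used here this holds for 60, including SOX9, JUNB, DUSP1, CLDN2, GPX2, HILPDA, ALDOA, IRF1 and TAP1. These genes are listed at or near 0 and were not tested, which says nothing about their expression. The share of all gene rows that overlap another gene was not computed.

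Inflammatory cytokines and bacterial products release the transcription factor NF-kB in gut epithelium by degrading its IkB inhibitors. NF-kB then switches on chemokines that recruit leukocytes, antimicrobial and acute phase proteins, and its own inhibitors, which form the feedback arm of the pathway. Other stress programmes work through transcription factors of their own. Hypoxia-inducible factor drives glycolysis and mitophagy genes when oxygen is short, ATF4 drives amino acid supply in the integrated stress response, NRF2 drives glutathione and detoxifying enzymes, and the aryl hydrocarbon receptor (AhR) drives CYP1A1. The immediate early genes, EGR1 and the FOS family among them, are switched on within minutes by growth factors and mechanical stimuli, largely through serum response factor bound to CArG boxes.

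Promoters of genes at both ends of the comparison are shown because they carry the binding motifs of these 2 systems. RefSeq windows (GRCh38.p14, 250 bases before to 50 after the annotated start) were matched for 9 of the 14 genes with the largest rises and 11 of the 14 with the largest falls. Both sets of 14 were chosen by the rule given with the processing below, which limits gene type, level and overlap of groups. Windows were searched on both strands for the NF-kB consensus and the CArG box, for the AP-1 site TGANTCA, for the hypoxia response core ACGTG and for the AhR core GCGTG. The NF-kB consensus was present in 5 of the 9 windows of the rises (LCN2, CCL20, BIRC3, CXCL3 and CXCL1), in 2 of the 11 of the falls (ADM2 and PRSS35) and in 11.3% of all 35116 windows. The CArG box was present in none of the 9 and in 2 of the 11 (EGR1 and CYP1A1), against 1.29% of all windows, and the EGR1 window held 2. AP-1 sites were in 2 of 9 and 1 of 11 windows against 7.71%, hypoxia cores in 0 of 9 and 2 of 11 against 21.4%, and AhR cores in 4 of 9 and 4 of 11 against 36.5%. These matches describe the letters of each window and do not show a bound site. In the windows below, written 5′ to 3′ on the strand of the gene, capitals mark the NF-kB match in the first 4 and the CArG boxes in EGR1.
LCN2, chr9:128149203-128149502 on the plus strand: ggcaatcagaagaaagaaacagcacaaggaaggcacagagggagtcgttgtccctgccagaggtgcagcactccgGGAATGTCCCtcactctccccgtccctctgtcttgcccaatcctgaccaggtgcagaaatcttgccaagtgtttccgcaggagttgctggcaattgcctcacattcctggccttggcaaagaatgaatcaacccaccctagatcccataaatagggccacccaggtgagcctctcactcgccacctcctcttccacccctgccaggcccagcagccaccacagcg
CCL20, chr2:227813592-227813891 on the plus strand: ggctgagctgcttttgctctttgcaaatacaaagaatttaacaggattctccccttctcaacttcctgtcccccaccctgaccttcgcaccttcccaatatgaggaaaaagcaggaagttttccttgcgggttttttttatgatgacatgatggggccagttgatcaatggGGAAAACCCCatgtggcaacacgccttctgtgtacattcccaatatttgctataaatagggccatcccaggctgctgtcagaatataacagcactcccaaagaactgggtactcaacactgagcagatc
BIRC3, chr11:102317234-102317533 on the plus strand: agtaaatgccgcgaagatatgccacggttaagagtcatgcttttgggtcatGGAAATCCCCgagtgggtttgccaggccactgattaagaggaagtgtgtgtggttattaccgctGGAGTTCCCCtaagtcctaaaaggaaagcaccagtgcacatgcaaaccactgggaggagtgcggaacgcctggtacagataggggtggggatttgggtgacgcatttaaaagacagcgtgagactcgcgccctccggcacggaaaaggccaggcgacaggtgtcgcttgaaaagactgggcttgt
CXCL3, chr4:74038640-74038939 on the minus strand: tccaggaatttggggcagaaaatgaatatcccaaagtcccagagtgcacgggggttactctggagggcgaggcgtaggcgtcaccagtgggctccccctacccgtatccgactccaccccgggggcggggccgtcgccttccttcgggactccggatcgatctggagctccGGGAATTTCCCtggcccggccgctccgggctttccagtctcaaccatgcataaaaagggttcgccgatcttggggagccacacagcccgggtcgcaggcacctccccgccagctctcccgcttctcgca
EGR1, chr5:138465229-138465528 on the plus strand: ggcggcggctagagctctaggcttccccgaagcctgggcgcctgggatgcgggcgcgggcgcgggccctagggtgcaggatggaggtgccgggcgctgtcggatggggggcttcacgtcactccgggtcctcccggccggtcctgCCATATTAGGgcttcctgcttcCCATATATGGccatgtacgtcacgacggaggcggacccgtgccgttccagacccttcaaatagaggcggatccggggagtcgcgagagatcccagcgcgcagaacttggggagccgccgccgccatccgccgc
The match in CXCL3 reads GGGAATTTCC and lies 79 bases before the start, and the window of CXCL1 holds the same letters at the same distance. The 2 boxes of EGR1 read CCATATTAGG and CCATATATGG, 105 and 83 bases before its start.

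The largest rises were mostly in genes of inflammation and mucosal defence, and the largest falls were led by EGR1 and CYP1A1. By edgeR's quasi-likelihood test, 775 of 14322 genes passed an adjusted p of 0.05, which is 5.41%, with 400 higher in IBD (2.79%) and 375 lower (2.62%). Rises were larger in size. Of the genes past the threshold, 142 rose and 67 fell by at least 2-fold, and 53 rose and 3 fell by at least 4-fold. The ranges of the 2 groups did not overlap for 709 of the 775, and over all tested genes IBD lay above VOS2 for 798 and below it for 991. The median log2 fold change of all tested genes was -0.0058. On log2(FPKM + 1) of the deposited FPKM the split was 170 higher against 252 lower. The shares of all genes are the background for each list below. A call lost means a gene no longer past the threshold under the setting named. Losses on log2 FPKM, with a 2-fold limit or with the replicate number as a block are not marked gene by gene. A gene without a mark can therefore still be unsteady. PPFIA4, PFKFB4, ANKRD1, TFF1 and HHLA2 lost their calls on log2 FPKM and with the block, and MAOA on log2(FPKM + 1) and with the block. The count depended on single libraries, with 1404 genes past the threshold without IBD 2, 411 without IBD 4, 366 without VOS2 1, 424 without VOS2 3 and 405 without VOS2 4. A fit of all 16 libraries called 492, and 452 of the 775 were among them. It adds VOS1 and NOS1, the table taken by elimination as the static control. The fit of 12 libraries named below adds NOS1 alone. In an earlier account of these data VOS1 was counted over shorter features and some static libraries stood apart. The added tables enter the spread in these fits, and their part in the calls lost was not tested. Of the 775, 453 overlap another gene, and since no strand step or setting is known, reads of such neighbours may be shared. The share of all tested genes that overlap another was not computed, so 453 is not a result about the called genes. A fit of genes that overlap no other tested 4817.

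**Figure D1:**
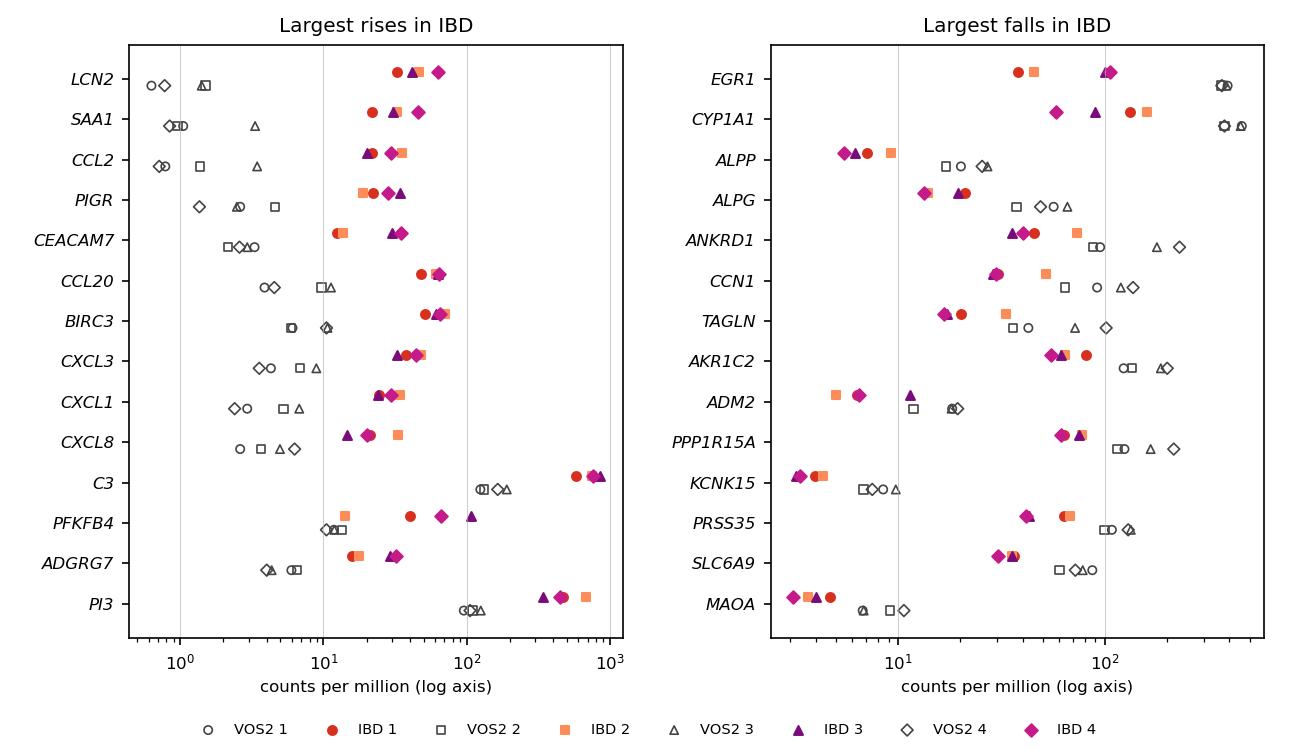
Library-size-scaled counts (CPM) on log axes of the 14 genes with the largest rises (left) and the 14 with the largest falls (right) in IBD. They were taken among protein-coding genes past the threshold whose groups do not overlap and whose mean log2 CPM is at least 2. Filled marks are IBD 1 to 4 and open marks VOS2 1 to 4, and for LCN2 the groups stand at 32.8 to 63.1 and 0.628 to 1.496 CPM.

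Several genes of secreted or mucosal defence proteins rose. LCN2, which encodes the siderophore-binding protein lipocalin 2 (chromosome 9, 128149071 to 128153455, plus strand, GENCODE v29, GRCh38), was at 32.8, 46.5, 41.2 and 63.1 CPM in IBD 1 to 4 and at 0.628, 1.496, 1.41 and 0.777 CPM in VOS2 1 to 4. LCN2 rose by 5.41 ± 0.26 on the log2 scale (SE, edgeR adjusted p = 4.14e-07), the smallest p of the whole table, and the groups did not overlap. SAA1, an acute phase apolipoprotein, was at 21.9, 32.4, 30.5 and 45.6 CPM in IBD 1 to 4 and at 1.05, 0.957, 3.33 and 0.842 CPM in VOS2 1 to 4. SAA1 rose by 4.38 ± 0.35 on the log2 scale (SE, edgeR adjusted p = 1.27e-05), though the near-identical SAA2 was listed at 0 in all 8 libraries and reads of it may be counted elsewhere. C3, the central complement component, was at 584, 748, 856 and 761 CPM in IBD 1 to 4 and at 125, 132, 191 and 165 CPM in VOS2 1 to 4. C3 rose by 2.27 ± 0.14 on the log2 scale (SE, edgeR adjusted p = 1.62e-06). PI3, the elastase inhibitor elafin, was at 475, 683, 340.4 and 451 CPM in IBD 1 to 4 and at 95.5, 109.6, 126 and 106 CPM in VOS2 1 to 4. PI3 rose by 2.16 ± 0.17 on the log2 scale (SE, edgeR adjusted p = 1.11e-05). PIGR, which carries antibodies across the epithelium, was at 22.2, 18.98, 34.1 and 28.2 CPM in IBD 1 to 4 and at 2.62, 4.61, 2.48 and 1.36 CPM in VOS2 1 to 4. PIGR rose by 3.22 ± 0.28 on the log2 scale (SE, edgeR adjusted p = 2.46e-05). LYZ, lysozyme, was at 23.3, 27.2, 23.1 and 25.97 CPM in IBD 1 to 4 and at 7.38, 7.598, 7.73 and 8.54 CPM in VOS2 1 to 4. LYZ rose by 1.67 ± 0.11 on the log2 scale (SE, edgeR adjusted p = 1.62e-06), with all 4 libraries of each group close together. Of 23 tested genes of acute phase, complement and antimicrobial function, 7 rose and 2 fell, against backgrounds of 2.79% and 2.62%, with a median log2 difference of 0.35. FGA, a fibrinogen chain, and CLU, the chaperone clusterin, were the 2 that fell, by 0.91 and 0.69 on the log2 scale, with the call of FGA lost in the fit of all 16 libraries, with the call of CLU lost without IBD 4, VOS2 3 or VOS2 4, in the fit of all 16 libraries and without IBD 3 and 4 together, and were named after their values were seen. SERPINA1, the plasma protease inhibitor, had the highest level of the list's genes not past the threshold, with a log2 difference of 0.34 ± 0.10 (SE, edgeR adjusted p = 0.0582).

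Most chemokines rose. Of 10 tested, 8 passed the threshold, all higher in IBD, and all 10 had a positive log2 difference with a median of 2.52. CCL2, which draws monocytes, was at 21.9, 35.1, 20.1 and 29.6 CPM in IBD 1 to 4 and at 0.785, 1.38, 3.44 and 0.712 CPM in VOS2 1 to 4. CCL2 rose by 4.06 ± 0.36 on the log2 scale (SE, edgeR adjusted p = 2.95e-05). CCL20, the ligand of CCR6 on dendritic and Th17 cells, was at 48.3, 60.8, 62.9 and 63.7 CPM in IBD 1 to 4 and at 3.87, 9.69, 11.3 and 4.53 CPM in VOS2 1 to 4. CCL20 rose by 3.00 ± 0.26 on the log2 scale (SE, edgeR adjusted p = 2.8e-05). The neutrophil-recruiting CXC chemokines moved with them. CXCL8 was at 21.2, 33.3, 14.7 and 20.1 CPM in IBD 1 to 4 and at 2.62, 3.65, 4.96 and 6.28 CPM in VOS2 1 to 4. CXCL8 rose by 2.36 ± 0.27 on the log2 scale (SE, edgeR adjusted p = 0.000279). CXCL1 was at 24.6, 34.2, 24.02 and 29.6 CPM in IBD 1 to 4 and at 2.93, 5.26, 6.77 and 2.395 CPM in VOS2 1 to 4. CXCL1 rose by 2.69 ± 0.26 on the log2 scale (SE, edgeR adjusted p = 4.76e-05). CXCL3 was at 37.6, 47.7, 32.6 and 44.1 CPM in IBD 1 to 4 and at 4.29, 6.82, 8.91 and 3.56 CPM in VOS2 1 to 4. CXCL3 rose by 2.77 ± 0.23 on the log2 scale (SE, edgeR adjusted p = 1.62e-05), and these 3 genes were lowest in IBD 3 of the induced libraries. CXCL5, of the same family, was at 11.7, 14.1, 12.1 and 16.6 CPM in IBD 1 to 4 and at 0, 0.419, 0.339 and 0 CPM in VOS2 1 to 4, so that VOS2 1 and 4 held no read of it, and it rose by 6.12 ± 0.43 on the log2 scale (SE, edgeR adjusted p = 4e-06). CXCL16 and CCL28 were the 2 not past the threshold, with log2 differences of 0.29 and 0.59 (edgeR adjusted p = 0.0735 and 0.0528). VOS2 3 was the highest or second highest VOS2 library for CCL2, CCL20, CXCL1, CXCL3 and CXCL8, and still lay below every IBD library.

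Part of the NF-kB list rose. Of 28 tested signalling and feedback genes 14 rose and none fell, and the median of the list stood 0.45, 0.50, 0.52 and 0.48 above the VOS2 mean on the log2 scale in IBD 1 to 4. BIRC3, a ubiquitin ligase of the TNF receptor complex, was at 51.1, 70.2, 60.9 and 65.3 CPM in IBD 1 to 4 and at 6.07, 5.92, 10.7 and 10.5 CPM in VOS2 1 to 4. BIRC3 rose by 2.90 ± 0.19 on the log2 scale (SE, edgeR adjusted p = 1.62e-06). NFKBIA, the IkB-alpha inhibitor that NF-kB itself induces, was at 132, 156, 148 and 144 CPM in IBD 1 to 4 and at 43.6, 52.2, 59.9 and 49.3 CPM in VOS2 1 to 4. NFKBIA rose by 1.5 ± 0.10 on the log2 scale (SE, edgeR adjusted p = 1.62e-06). NFKBIE, another IkB, was at 45.04, 50.9, 46.5 and 44.5 CPM in IBD 1 to 4 and at 18.2, 18.4, 25.4 and 20.8 CPM in VOS2 1 to 4. NFKBIE rose by 1.17 ± 0.11 on the log2 scale (SE, edgeR adjusted p = 5.12e-05). IKBKE, an IkB kinase relative, was at 45.1, 51.1, 42.3 and 40 CPM in IBD 1 to 4 and at 9.47, 12.3, 14.9 and 9.52 CPM in VOS2 1 to 4. IKBKE rose by 1.95 ± 0.14 on the log2 scale (SE, edgeR adjusted p = 6.76e-06). ZC3H12A, an RNase that degrades cytokine transcripts, was at 56.7, 64.5, 61.4 and 59.9 CPM in IBD 1 to 4 and at 23.8, 25.2, 29.8 and 25.2 CPM in VOS2 1 to 4. ZC3H12A rose by 1.22 ± 0.09 on the log2 scale (SE, edgeR adjusted p = 6.93e-06). The groups were apart for each of these 5. NFKBIZ, an atypical IkB, and NFKB1, the p105 precursor, did not pass, with log2 differences of -0.0047 and 0.31 (edgeR adjusted p = 0.984 and 0.112). SOD2, the mitochondrial superoxide dismutase and an NF-kB target, was at 287, 344, 314 and 356 CPM in IBD 1 to 4 and at 119, 115, 136 and 128 CPM in VOS2 1 to 4. SOD2 rose by 1.39 ± 0.09 on the log2 scale (SE, edgeR adjusted p = 1.62e-06). MIR3142HG, a long noncoding RNA gene that hosts microRNAs, was at 16.2, 17.9, 14.9 and 14.7 CPM in IBD 1 to 4 and at 1.31, 1.61, 2.09 and 0.971 CPM in VOS2 1 to 4. MIR3142HG rose by 3.40 ± 0.19 on the log2 scale (SE, edgeR adjusted p = 1.02e-06).

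Cytokine and receptor genes followed, with 13 of 33 tested higher and none lower. LTB, a membrane ligand of the TNF family, was at 5.57, 7.91, 6.91 and 7.43 CPM in IBD 1 to 4 and at 0.0523, 0.1196, 0.282 and 0.1295 CPM in VOS2 1 to 4. LTB rose by 5.51 ± 0.32 on the log2 scale (SE, edgeR adjusted p = 1.02e-06). TNFRSF9, the costimulatory receptor 4-1BB, was at 6.098, 8.81, 6.51 and 6.35 CPM in IBD 1 to 4 and at 0.995, 0.658, 1.24 and 1.49 CPM in VOS2 1 to 4. TNFRSF9 rose by 2.66 ± 0.24 on the log2 scale (SE, edgeR adjusted p = 2.95e-05). IL1B was at 3.79, 3.28, 2.77 and 4.698 CPM in IBD 1 to 4 and at 0.942, 1.08, 1.24 and 1.04 CPM in VOS2 1 to 4. IL1B rose by 1.75 ± 0.23 on the log2 scale (SE, edgeR adjusted p = 0.000811). IL32, a cytokine found in inflamed epithelium, was at 121, 144, 135 and 136 CPM in IBD 1 to 4 and at 55.4, 52.8, 81.6 and 82.1 CPM in VOS2 1 to 4. IL32 rose by 0.98 ± 0.14 on the log2 scale (SE, edgeR adjusted p = 0.00121). IFNGR1, the ligand-binding chain of the interferon gamma receptor, was at 395, 474, 525 and 568 CPM in IBD 1 to 4 and at 211, 234, 239 and 228 CPM in VOS2 1 to 4. IFNGR1 rose by 1.10 ± 0.10 on the log2 scale (SE, edgeR adjusted p = 3.55e-05). The TNF receptor TNFRSF1A stood at 120.2 ± 9.43 CPM (SD, n = 4) in IBD and 120.2 ± 9.86 CPM in VOS2, a difference that did not pass the threshold (edgeR adjusted p = 0.999).

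Few interferon genes passed the threshold. Of 24 tested interferon response genes 1 rose, the guanylate-binding protein GBP2, a call lost without IBD 4, VOS2 1 or VOS2 4 and without IBD 3 and 4 together. None fell, and 1 of 24 is 4.17% against a background of 2.79%. In antigen presentation 5 of 18 genes were higher and none lower. B2M, the light chain of class I molecules, was at 409, 472, 465 and 540.4 CPM in IBD 1 to 4 and at 327, 313, 363 and 376 CPM in VOS2 1 to 4. B2M rose by 0.45 ± 0.09 on the log2 scale (SE, edgeR adjusted p = 0.0126), a call lost without VOS2 1. TAPBP, the peptide-loading chaperone tapasin, rose by 0.68 ± 0.12 on the log2 scale (SE, edgeR adjusted p = 0.00477). In the JAK-STAT list 2 of 19 rose and 2 fell. CEBPD, an acute phase transcription factor, was at 34.7, 39.2, 41.2 and 39.9 CPM in IBD 1 to 4 and at 16.3, 17.1, 20.4 and 17.7 CPM in VOS2 1 to 4. CEBPD rose by 1.11 ± 0.10 on the log2 scale (SE, edgeR adjusted p = 2.95e-05). CEBPB, its relative, fell by 0.43 ± 0.11 on the log2 scale (SE, edgeR adjusted p = 0.0403), a call lost without IBD 1, IBD 4, VOS2 1, VOS2 3 or VOS2 4, in the fit of 12 libraries and in the fit of all 16 libraries.

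Surface and apoptosis genes showed smaller counts. Of 11 adhesion genes 3 rose, and CEACAM7, an epithelial adhesion molecule of the apical surface, was at 12.4, 13.7, 29.9 and 34.8 CPM in IBD 1 to 4 and at 3.297, 2.15, 2.93 and 2.59 CPM in VOS2 1 to 4. CEACAM7 rose by 3.04 ± 0.33 on the log2 scale (SE, edgeR adjusted p = 0.000158). Its IBD values formed 2 pairs, with IBD 3 and 4 above IBD 1 and 2. ADGRG7, an adhesion receptor, was at 15.8, 17.6, 29.3 and 32.1 CPM in IBD 1 to 4 and at 5.97, 6.52, 4.34 and 4.01 CPM in VOS2 1 to 4. ADGRG7 rose by 2.17 ± 0.24 on the log2 scale (SE, edgeR adjusted p = 0.000192), with the same pairs. ICAM1, a leukocyte ligand, rose by 0.70 ± 0.17 on the log2 scale (SE, edgeR adjusted p = 0.0311), a call lost without IBD 1, IBD 4, VOS2 1 or VOS2 2. MMP7, matrilysin, was the 1 of 14 matrix protease genes to rise, at 3.601, 3.62, 3.85 and 5.46 CPM in IBD 1 to 4 and at 0.0523, 0.359, 0.339 and 0.388 CPM in VOS2 1 to 4, and rose by 3.86 ± 0.36 on the log2 scale (SE, edgeR adjusted p = 3.84e-05). Among 10 oxidase genes 3 rose, and DUOX2, a hydrogen peroxide-producing oxidase, was at 0.7203, 0.621, 4.81 and 3.24 CPM in IBD 1 to 4 and at 0.314, 0.419, 0.113 and 0.259 CPM in VOS2 1 to 4. DUOX2 rose by 3.04 ± 0.69 on the log2 scale (SE, edgeR adjusted p = 0.0227), a call lost without IBD 4, VOS2 1, VOS2 3 or VOS2 4 and without IBD 3 and 4 together, with IBD 3 and 4 well above IBD 1 and 2. Of 28 apoptosis regulators 5 rose and 1 fell. CFLAR, which blocks caspase-8, rose by 0.52 ± 0.09 on the log2 scale (SE, edgeR adjusted p = 0.00364), and BCL2L1, the BCL-XL gene, fell by 0.35 ± 0.07 on the log2 scale (SE, edgeR adjusted p = 0.0128), a call lost without VOS2 3 and in the fit of all 16 libraries.

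**Figure D2:**
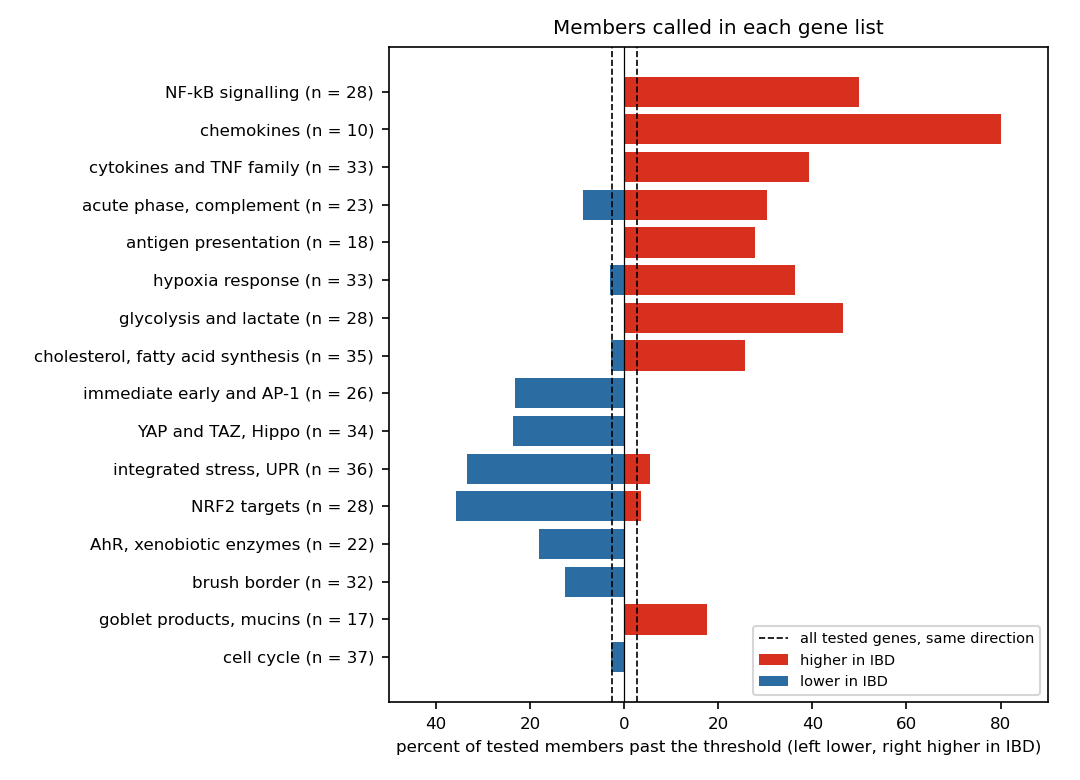
Percent of the tested members of 16 gene lists that passed an adjusted p of 0.05, drawn to the right where higher and to the left where lower in IBD, with the number tested in brackets. Dashed lines mark the share of all tested genes, 2.79% higher and 2.62% lower, which chemokines exceed at 80% and the cell cycle list does not.

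Some immediate early genes fell, led by EGR1. EGR1, a zinc finger transcription factor (chromosome 5, 138465490 to 138469315, plus strand, GENCODE v29, GRCh38), was at 38.2, 45.5, 99.7 and 106 CPM in IBD 1 to 4 and at 392, 364, 387 and 367 CPM in VOS2 1 to 4. EGR1 fell by 2.38 ± 0.27 on the log2 scale (SE, edgeR adjusted p = 0.00021), and IBD 1 and 2 lay below IBD 3 and 4. Of 26 tested immediate early and AP-1 genes, 6 fell and none rose, with a median of -0.34. The number that fell was 10 without IBD 3 and 4 without IBD 4, VOS2 3 or VOS2 4. NR4A1, an orphan nuclear receptor, was at 26.8, 28.5, 28.1 and 22.4 CPM in IBD 1 to 4 and at 41.3, 34.9, 48.96 and 54.96 CPM in VOS2 1 to 4. NR4A1 fell by 0.77 ± 0.13 on the log2 scale (SE, edgeR adjusted p = 0.00493). IER2 was at 24.4, 23.6, 29.5 and 25.7 CPM in IBD 1 to 4 and at 38.05, 34.8, 36.6 and 36.2 CPM in VOS2 1 to 4. IER2 fell by 0.50 ± 0.09 on the log2 scale (SE, edgeR adjusted p = 0.00769). FOSL1, the AP-1 subunit FRA1, was at 22.4, 34.96, 17.4 and 21.4 CPM in IBD 1 to 4 and at 41.5, 32.9, 56.1 and 57.4 CPM in VOS2 1 to 4. FOSL1 fell by 0.97 ± 0.21 on the log2 scale (SE, edgeR adjusted p = 0.0177), a call lost without IBD 4, VOS2 3 or VOS2 4, in the fit of all 16 libraries and without IBD 3 and 4 together, and its value in IBD 2 reached into the VOS2 range. FOS itself was at 12.1, 10.7, 47.1 and 41.8 CPM in IBD 1 to 4 and at 52.9, 50.4, 60.9 and 63.8 CPM in VOS2 1 to 4. FOS split the induced libraries as EGR1 did, below VOS2 in all 4 but close to it in IBD 3 and 4, and did not pass, with a log2 difference of -1.04 ± 0.38 (SE, edgeR adjusted p = 0.135). MYC and KLF5 did not pass (edgeR adjusted p = 0.0654 and 0.209). Of 18 genes of the ERK feedback list 3 fell, among them CCND1, the cyclin D1 gene, at 222, 244, 173 and 169.5 CPM in IBD 1 to 4 and at 298, 273, 308 and 318 CPM in VOS2 1 to 4, which fell by 0.57 ± 0.11 on the log2 scale (SE, edgeR adjusted p = 0.0109), a call lost without VOS2 4.

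Targets of the mechanosensitive coactivators YAP and TAZ fell in part. Of 34 tested genes of this list 8 fell and none rose, with a median of -0.13. CCN1, a matricellular protein that is also an immediate early gene, was at 30.3, 52.02, 28.9 and 29.8 CPM in IBD 1 to 4 and at 91.7, 64.01, 119 and 137 CPM in VOS2 1 to 4. CCN1 fell by 1.55 ± 0.23 on the log2 scale (SE, edgeR adjusted p = 0.00169). ANKRD1, an ankyrin repeat cofactor, was at 45.3, 73.2, 35.7 and 40.2 CPM in IBD 1 to 4 and at 94.8, 87.8, 178 and 229 CPM in VOS2 1 to 4. ANKRD1 fell by 1.60 ± 0.29 on the log2 scale (SE, edgeR adjusted p = 0.00705). TAGLN, the actin-binding protein transgelin, was named from the actin list counted below. It was at 20.2, 33.1, 17.3 and 16.8 CPM in IBD 1 to 4 and at 42.7, 35.95, 71.8 and 101 CPM in VOS2 1 to 4. TAGLN fell by 1.52 ± 0.30 on the log2 scale (SE, edgeR adjusted p = 0.0104), a call lost without IBD 4, in the fit of all 16 libraries and without IBD 3 and 4 together. These 3 genes shared an order of libraries, with VOS2 3 and 4 above VOS2 1 and 2, and IBD 2 the highest of the induced libraries. TEAD1, the DNA-binding partner of YAP, was at 92.7, 95.7, 85.6 and 86.8 CPM in IBD 1 to 4 and at 122, 128, 117 and 121 CPM in VOS2 1 to 4. TEAD1 fell by 0.44 ± 0.07 on the log2 scale (SE, edgeR adjusted p = 0.00282), a call lost in the fit of 12 libraries and in the fit of all 16 libraries. YAP1 did not pass (edgeR adjusted p = 0.503). In the actin list 1 of 34 genes was higher and 2 were lower, TAGLN among them, with a median of 0.003. ACTB stood at 3185 ± 69.3 CPM (SD, n = 4) in IBD and 3375 ± 315 CPM in VOS2. Of 19 mechanosensitive and volume-regulated channels 2 fell, and PIEZO1, a stretch-activated channel, did not pass, with a log2 difference of -0.0039 ± 0.10 (SE, edgeR adjusted p = 0.988).

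Some genes of the integrated stress response fell. Of 36 tested genes of this response and the unfolded protein response 12 fell and 2 rose, with a median of -0.24. The genes described first are known targets of ATF4. PHGDH, the first enzyme of serine synthesis, was at 332, 306, 401 and 404 CPM in IBD 1 to 4 and at 594, 559, 596 and 515 CPM in VOS2 1 to 4. PHGDH fell by 0.65 ± 0.10 on the log2 scale (SE, edgeR adjusted p = 0.00169). CTH, which makes cysteine, was at 15.5, 12.8, 15.1 and 16.9 CPM in IBD 1 to 4 and at 25.96, 27.5, 22.9 and 24.7 CPM in VOS2 1 to 4. CTH fell by 0.75 ± 0.11 on the log2 scale (SE, edgeR adjusted p = 0.00155). SLC3A2, the heavy chain of amino acid exchangers, was at 368, 448, 337 and 364 CPM in IBD 1 to 4 and at 582, 542, 709 and 680.3 CPM in VOS2 1 to 4. SLC3A2 fell by 0.73 ± 0.11 on the log2 scale (SE, edgeR adjusted p = 0.00145). SLC7A11, its cystine-transporting partner, was at 14.2, 16.8, 17.8 and 17.8 CPM in IBD 1 to 4 and at 28.2, 28.9, 26.6 and 31.3 CPM in VOS2 1 to 4. SLC7A11 fell by 0.79 ± 0.10 on the log2 scale (SE, edgeR adjusted p = 0.000748). PPP1R15A, the GADD34 subunit that ends the stress response, was at 63.5, 77.7, 74.6 and 61.5 CPM in IBD 1 to 4 and at 124, 115, 166 and 215 CPM in VOS2 1 to 4. PPP1R15A fell by 1.16 ± 0.17 on the log2 scale (SE, edgeR adjusted p = 0.00141). SLC6A9, a glycine transporter, was at 36.2, 35.4, 35.5 and 30.6 CPM in IBD 1 to 4 and at 86.9, 60.3, 78.1 and 71.98 CPM in VOS2 1 to 4. SLC6A9 fell by 1.11 ± 0.11 on the log2 scale (SE, edgeR adjusted p = 7.22e-05). The groups were apart for these 6 genes. ADM2, a secreted peptide of the calcitonin family, was at 6.34, 5.03, 11.4 and 6.48 CPM in IBD 1 to 4 and at 18.3, 11.9, 18.2 and 19.4 CPM in VOS2 1 to 4. ADM2 fell by 1.21 ± 0.23 on the log2 scale (SE, edgeR adjusted p = 0.00872). ATF4 itself did not pass, at 499 ± 53.7 CPM (SD, n = 4) in IBD and 594 ± 27.04 CPM in VOS2 (edgeR adjusted p = 0.0977), nor did HSPA5, the endoplasmic reticulum chaperone BiP (edgeR adjusted p = 0.397). HSP90B1 and PDIA4, both folding factors of that compartment, were the 2 that rose, by 0.34 and 0.28 on the log2 scale, with the call of HSP90B1 lost without IBD 3, IBD 4, VOS2 1, VOS2 3 or VOS2 4, in the fit of all 16 libraries and without IBD 3 and 4 together, with the call of PDIA4 lost without IBD 1, IBD 2, VOS2 1, VOS2 2, VOS2 3 or VOS2 4, with library size alone, in the fit of 12 libraries and in the fit of all 16 libraries, and were named after their values were seen.

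Some NRF2 targets and xenobiotic enzymes fell as well. Of 28 tested NRF2 targets 10 fell and 1 rose, with a median of -0.30. AKR1C2, an aldo-keto reductase, was at 80.9, 63.99, 61.7 and 54.8 CPM in IBD 1 to 4 and at 123, 135, 186 and 200.1 CPM in VOS2 1 to 4. AKR1C2 fell by 1.30 ± 0.16 on the log2 scale (SE, edgeR adjusted p = 0.000399), but AKR1C1 is nearly identical and reads may be split between them. ME1, the NADPH-producing malic enzyme, was at 281, 313, 246 and 266 CPM in IBD 1 to 4 and at 399, 434, 416 and 418 CPM in VOS2 1 to 4. ME1 fell by 0.59 ± 0.08 on the log2 scale (SE, edgeR adjusted p = 0.000915). GSTA1, a glutathione transferase with the near copy GSTA2, was at 91.4, 76.8, 95.7 and 89.3 CPM in IBD 1 to 4 and at 136, 178, 118 and 162 CPM in VOS2 1 to 4. GSTA1 fell by 0.75 ± 0.12 on the log2 scale (SE, edgeR adjusted p = 0.00246). Of 22 AhR targets and xenobiotic enzymes 4 fell and none rose. CYP1A1, the standard readout of AhR, was at 132, 159, 89.9 and 57.97 CPM in IBD 1 to 4 and at 459, 378, 453 and 378 CPM in VOS2 1 to 4. CYP1A1 fell by 1.93 ± 0.23 on the log2 scale (SE, edgeR adjusted p = 0.000386). CYP1A1 was lower in IBD 3 and 4 than in IBD 1 and 2, whereas EGR1 was higher in them. TIPARP, the AhR feedback repressor, was at 47.3, 58.9, 52.96 and 49.1 CPM in IBD 1 to 4 and at 73.1, 73.8, 76.2 and 81.2 CPM in VOS2 1 to 4. TIPARP fell by 0.55 ± 0.09 on the log2 scale (SE, edgeR adjusted p = 0.00243). CYP2W1, a cytochrome P450 of colon tumours, was at 109, 77.9, 98.8 and 70.4 CPM in IBD 1 to 4 and at 179, 142, 156 and 143 CPM in VOS2 1 to 4. CYP2W1 fell by 0.80 ± 0.13 on the log2 scale (SE, edgeR adjusted p = 0.00297). NQO1, which both factors can drive, did not pass, with a log2 difference of -0.26 ± 0.09 (SE, edgeR adjusted p = 0.127). MAOA, a monoamine oxidase, was at 4.71, 3.67, 4.02 and 3.11 CPM in IBD 1 to 4 and at 6.75, 9.15, 6.83 and 10.7 CPM in VOS2 1 to 4. MAOA fell by 1.10 ± 0.19 on the log2 scale (SE, edgeR adjusted p = 0.00529).

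The induced libraries disagreed about hypoxia genes. Of 33 tested genes of the hypoxia list 12 rose and 1 fell, but the list's median stood 0.30, -0.12, 1.31 and 0.91 from the VOS2 mean on the log2 scale in IBD 1 to 4, against -0.02, 0.08, -0.02 and -0.03 in VOS2 1 to 4. IBD 3 was the highest induced library for 26 of the 33 genes and IBD 2 the lowest for 26. Above the whole VOS2 range were 22, 5, 30 and 28 genes in IBD 1 to 4. NDRG1, a stress protein strongly induced by low oxygen (chromosome 8, 133237171 to 133302022, minus strand, GENCODE v29, GRCh38), was at 524, 124, 1974 and 1136 CPM in IBD 1 to 4 and at 149, 197, 140.2 and 128 CPM in VOS2 1 to 4. IBD 2 lay below every VOS2 library and the other induced libraries above them, and NDRG1 rose by 2.61 ± 0.56 on the log2 scale (SE, edgeR adjusted p = 0.0171), a call lost without IBD 4, VOS2 1, VOS2 3 or VOS2 4 and without IBD 3 and 4 together. BNIP3, a mitophagy receptor, was at 93.3, 47.05, 261 and 199.9 CPM in IBD 1 to 4 and at 42.3, 48.04, 39.1 and 37.1 CPM in VOS2 1 to 4. BNIP3 rose by 1.85 ± 0.38 on the log2 scale (SE, edgeR adjusted p = 0.0137), a call lost without IBD 4, VOS2 1, VOS2 3 or VOS2 4. PPFIA4, a liprin induced by hypoxia, was at 11.7, 1.24, 46.4 and 18.3 CPM in IBD 1 to 4 and at 0.785, 1.79, 0.677 and 0.842 CPM in VOS2 1 to 4. PPFIA4 rose by 4.24 ± 0.80 on the log2 scale (SE, edgeR adjusted p = 0.00834). BHLHE40, a repressor of the clock and hypoxia networks, was at 34.7, 23.7, 111 and 87.1 CPM in IBD 1 to 4 and at 17.1, 16.3, 21.3 and 21.5 CPM in VOS2 1 to 4. BHLHE40 rose by 1.75 ± 0.38 on the log2 scale (SE, edgeR adjusted p = 0.0175), a call lost without IBD 4, VOS2 1, VOS2 2 or VOS2 3 and in the fit of 12 libraries. ERO1A, the oxidase of disulfide formation, was at 303, 272, 599.8 and 504 CPM in IBD 1 to 4 and at 207, 235, 178 and 199.7 CPM in VOS2 1 to 4. ERO1A rose by 1.03 ± 0.21 on the log2 scale (SE, edgeR adjusted p = 0.0119), a call lost without IBD 4 or VOS2 3. P4HA1, a collagen prolyl hydroxylase subunit, was at 104, 68.8, 309 and 238 CPM in IBD 1 to 4 and at 62.6, 81.4, 59.5 and 65.3 CPM in VOS2 1 to 4. P4HA1 rose by 1.42 ± 0.35 on the log2 scale (SE, edgeR adjusted p = 0.03495), a call lost without IBD 3, IBD 4, VOS2 1, VOS2 2, VOS2 3 or VOS2 4 and without IBD 3 and 4 together. The number of hypoxia genes that rose was 25 without IBD 2, 1 without IBD 4, 2 without VOS2 1, 6 without VOS2 2, 2 without VOS2 3 and 3 without VOS2 4, and 5 without IBD 3 and 4 together. SLC2A1, the glucose transporter GLUT1, was at 1586, 1427, 2341 and 2018 CPM in IBD 1 to 4 and at 1593, 1576, 1571 and 1302 CPM in VOS2 1 to 4 and did not pass, with a log2 difference of 0.29 ± 0.13 (SE, edgeR adjusted p = 0.246).

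**Figure D3:**
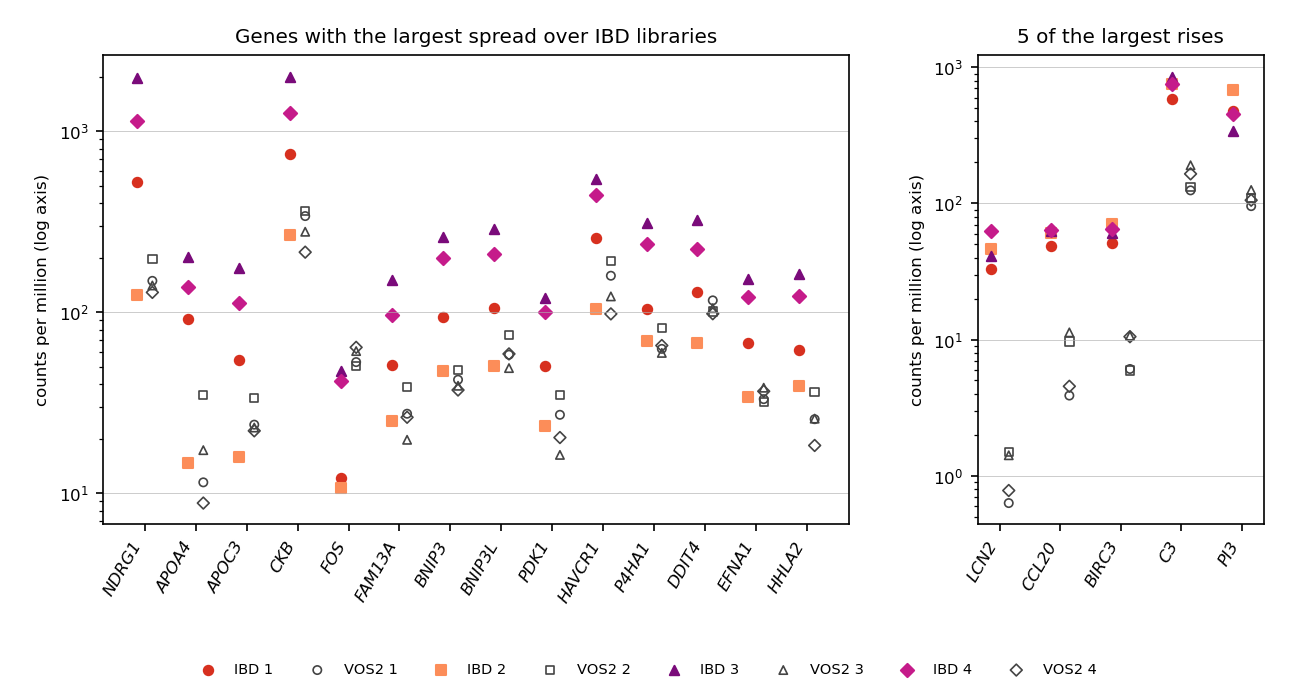
Library-size-scaled counts (CPM) on a log axis of the 14 genes with the largest SD over the IBD libraries (left) and, for contrast, of 5 of the largest rises (right), with filled marks for IBD and open marks for VOS2. For NDRG1 the IBD marks run from 123.5 to 1974 CPM around VOS2 marks at 128 to 197 CPM, while for BIRC3 all IBD marks lie between 51.1 and 70.2 CPM.

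Some glycolysis genes rose. Of 28 tested genes 13 rose and none fell, with medians of 0.40, 0.15, 0.89 and 0.61 above the VOS2 mean on the log2 scale in IBD 1 to 4. The number that rose was 20 without IBD 2. It was below 13 without any other single library, down to 9 without IBD 4, and 9 with the replicate number as a block. The groups did not overlap for the next 4 enzymes. PGAM1, phosphoglycerate mutase, was at 378, 337, 541 and 529 CPM in IBD 1 to 4 and at 249, 280.4, 265 and 256 CPM in VOS2 1 to 4. PGAM1 rose by 0.77 ± 0.13 on the log2 scale (SE, edgeR adjusted p = 0.00493). TPI1, triosephosphate isomerase, was at 1537, 1369.7, 2119.5 and 1991 CPM in IBD 1 to 4 and at 1053, 1129, 1152 and 1010.4 CPM in VOS2 1 to 4. TPI1 rose by 0.69 ± 0.12 on the log2 scale (SE, edgeR adjusted p = 0.00505). ENO1, enolase, rose by 0.59 ± 0.10 on the log2 scale (SE, edgeR adjusted p = 0.00364). PKM, pyruvate kinase, rose by 0.48 ± 0.07 on the log2 scale (SE, edgeR adjusted p = 0.00191), a call lost in the fit of all 16 libraries. PFKFB4, which makes the activator of phosphofructokinase, was at 40.1, 14.2, 108 and 66.1 CPM in IBD 1 to 4 and at 11.8, 13.4, 11.9 and 10.5 CPM in VOS2 1 to 4. PFKFB4 rose by 2.26 ± 0.43 on the log2 scale (SE, edgeR adjusted p = 0.00893), with IBD 2 just above the VOS2 range. PDK1, which keeps pyruvate out of the mitochondria, was at 50.3, 23.4, 119 and 100.4 CPM in IBD 1 to 4 and at 27.1, 34.7, 16.2 and 20.3 CPM in VOS2 1 to 4. PDK1 rose by 1.57 ± 0.39 on the log2 scale (SE, edgeR adjusted p = 0.03505), a call lost without IBD 3, IBD 4, VOS2 1, VOS2 3 or VOS2 4 and without IBD 3 and 4 together, and IBD 2 lay inside the VOS2 range. TKT of the pentose phosphate branch did not pass (edgeR adjusted p = 0.9297).

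The other genes with the largest spread within IBD followed the same order of libraries. The 14 genes with the largest SD among those whose mean log2 CPM reached 5 were chosen for that spread, so it is given as a description. In all 14 IBD 3 was highest, followed by IBD 4, IBD 1 and IBD 2. APOA4, an apolipoprotein of intestinal chylomicrons, was at 91.2, 14.6, 202 and 138 CPM in IBD 1 to 4 and at 11.5, 34.7, 17.3 and 8.804 CPM in VOS2 1 to 4. APOA4 rose by 2.62 ± 0.59 on the log2 scale (SE, edgeR adjusted p = 0.0224), a call lost without IBD 4, VOS2 1, VOS2 3 or VOS2 4 and without IBD 3 and 4 together. APOC3, its neighbour on chromosome 11, was at 54.02, 15.8, 174 and 112 CPM in IBD 1 to 4 and at 23.9, 33.4, 23.01 and 22.1 CPM in VOS2 1 to 4 and did not pass (edgeR adjusted p = 0.0522). CKB, the cytosolic creatine kinase, was at 742, 268, 2000.4 and 1257 CPM in IBD 1 to 4 and at 339, 362, 278 and 214 CPM in VOS2 1 to 4. CKB rose by 1.84 ± 0.42 on the log2 scale (SE, edgeR adjusted p = 0.0245), a call lost without IBD 4, VOS2 1, VOS2 3 or VOS2 4 and without IBD 3 and 4 together. EFNA1, an ephrin ligand, was at 67.8, 33.9, 153 and 121 CPM in IBD 1 to 4 and at 33.03, 31.9, 38.2 and 36.5 CPM in VOS2 1 to 4. EFNA1 rose by 1.42 ± 0.33 on the log2 scale (SE, edgeR adjusted p = 0.0248), a call lost without IBD 4, VOS2 1, VOS2 2, VOS2 3 or VOS2 4 and without IBD 3 and 4 together. HHLA2, an immune checkpoint ligand of the B7 family, was at 61.5, 38.9, 162 and 122 CPM in IBD 1 to 4 and at 25.6, 36.2, 25.8 and 18.3 CPM in VOS2 1 to 4. HHLA2 was the 1 gene among them other than FOS whose groups did not overlap, and it rose by 1.86 ± 0.36 on the log2 scale (SE, edgeR adjusted p = 0.00911). DDIT4, an mTOR inhibitor, was at 129, 67.6, 321 and 222 CPM in IBD 1 to 4 and at 116, 101, 105 and 97.9 CPM in VOS2 1 to 4 and HAVCR1, a phosphatidylserine receptor, at 257, 104, 541 and 441 CPM in IBD 1 to 4 and at 159, 192, 122 and 97.7 CPM in VOS2 1 to 4. Neither passed (edgeR adjusted p = 0.1805 and 0.0735). FAM13A, at 24.96 to 151 CPM in IBD, and BNIP3L, at 50.6 to 286 CPM, passed, with the call of FAM13A lost without IBD 3, IBD 4, VOS2 1, VOS2 2, VOS2 3 or VOS2 4, with library size alone, with DESeq2 and without IBD 3 and 4 together, with the call of BNIP3L lost without IBD 3, IBD 4, VOS2 1, VOS2 2, VOS2 3 or VOS2 4, with library size alone, with DESeq2 and without IBD 3 and 4 together.

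**Figure D4:**
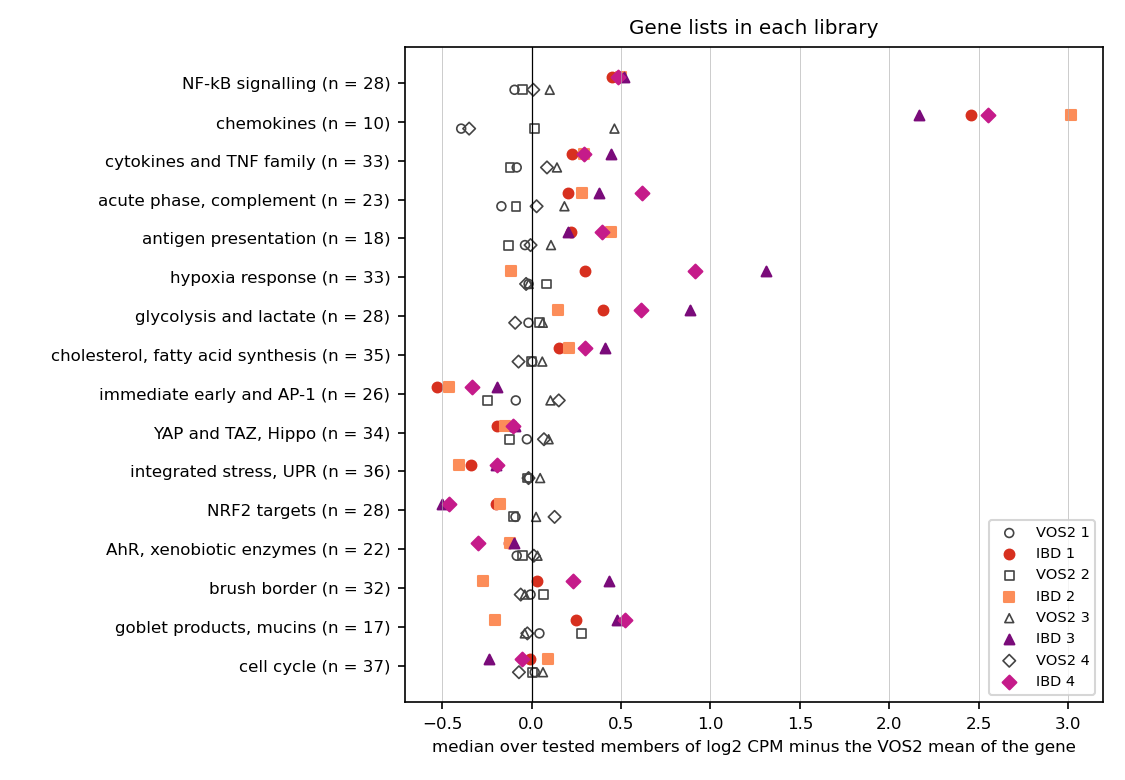
Median, over the tested members of each of 16 gene lists, of a gene's log2 CPM minus its VOS2 mean, for each library, with filled marks for IBD and open marks for VOS2. The IBD marks lie close together for NF-kB signalling at 0.45 to 0.52 and spread for the hypoxia response from -0.12 to 1.31.

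Over the whole transcriptome the induced group was the more variable. Among 10481 genes whose mean log2 CPM reached 2, the SD of log2 CPM was larger in IBD than in VOS2 for 6983, and its median was 0.153 against 0.115. An SD over 0.5 was found for 295 genes in IBD and 100 in VOS2. Of the 295, IBD 3 was highest for 232 and IBD 2 lowest for 233. On the first principal component of the 8 libraries, with 41.1% of the variance, IBD 1 to 4 lay at -12.3, 3.19, -40.9 and -33.5 and the VOS2 libraries between 13.6 and 26, and IBD 2 stood apart on the second at 35. Depth was alike in the libraries at the ends of this order, with 17823456 counts in IBD 3 and 17931521 in IBD 2. What set IBD 2 apart was not tested.

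Sterol synthesis rose in part. Of 35 tested genes of cholesterol and fatty acid synthesis 9 rose and 1 fell, with a median of 0.27, and the number that rose was 5 without IBD 4, 5 without VOS2 1 and 5 without VOS2 4. FDPS, which makes farnesyl diphosphate, was at 189.6, 168, 248 and 247 CPM in IBD 1 to 4 and at 129, 133, 142 and 129 CPM in VOS2 1 to 4. FDPS rose by 0.68 ± 0.11 on the log2 scale (SE, edgeR adjusted p = 0.00397). FDFT1, squalene synthase, was at 280.2, 305, 329 and 348 CPM in IBD 1 to 4 and at 224, 203, 248 and 209 CPM in VOS2 1 to 4. FDFT1 rose by 0.51 ± 0.09 on the log2 scale (SE, edgeR adjusted p = 0.00402). HMGCS1, which makes the substrate of HMG-CoA reductase, was at 261, 264, 345 and 333 CPM in IBD 1 to 4 and at 207, 225, 195 and 201 CPM in VOS2 1 to 4. HMGCS1 rose by 0.54 ± 0.10 on the log2 scale (SE, edgeR adjusted p = 0.00702), a call lost in the fit of all 16 libraries. The groups were apart for these 3 genes. On the fatty acid side SCD and FASN did not pass (edgeR adjusted p = 0.126 and 0.434). Of 24 genes of lipid absorption 2 rose and 2 fell. FABP1, the liver-type fatty acid-binding protein of enterocytes, was at 696, 615, 982 and 1056 CPM in IBD 1 to 4 and at 373, 482, 359 and 339 CPM in VOS2 1 to 4. FABP1 rose by 1.11 ± 0.16 on the log2 scale (SE, edgeR adjusted p = 0.00155). APOE, a lipoprotein ligand, fell by 0.38 ± 0.07 on the log2 scale (SE, edgeR adjusted p = 0.00946), a call lost without VOS2 4, in the fit of 12 libraries and in the fit of all 16 libraries. Of 26 genes of fatty acid oxidation 2 rose, and VNN1, a pantetheinase and PPAR target, rose by 2.56 ± 0.35 on the log2 scale (SE, edgeR adjusted p = 0.00105). Its level was low, at 1.54, 1.81, 2.49 and 1.52 CPM in IBD 1 to 4. In VOS2 1 to 4 VNN1 was at 0.209, 0.1795, 0.395 and 0.453 CPM.

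Differentiation genes of the enterocyte showed few calls and a split among the induced libraries. Of 32 tested brush border genes 4 fell and none rose. DPP4, dipeptidyl peptidase 4, was at 292, 307, 321 and 284 CPM in IBD 1 to 4 and at 470.0, 527, 455 and 525 CPM in VOS2 1 to 4. DPP4 fell by 0.72 ± 0.08 on the log2 scale (SE, edgeR adjusted p = 0.000127). ALPP and ALPG, placental and germ cell alkaline phosphatases so alike that reads may be split between them, were at 7.11, 9.26, 6.23 and 5.46 CPM and 21.1, 13.9, 19.5 and 13.4 CPM in IBD 1 to 4. In VOS2 1 to 4 they were at 20.1, 17.1, 27.1 and 25.5 CPM and 56.5, 37.5, 65.9 and 48.9 CPM. ALPP fell by 1.68 ± 0.18 on the log2 scale (SE, edgeR adjusted p = 0.000162), and ALPG fell by 1.61 ± 0.18 on the log2 scale (SE, edgeR adjusted p = 0.00021). The median of the list nonetheless stood 0.03, -0.27, 0.43 and 0.23 from the VOS2 mean on the log2 scale in IBD 1 to 4, with IBD 3 the highest induced library for 25 of the 32 genes and IBD 2 the lowest for 19. VIL1, the brush border protein villin, was at 571, 512, 582 and 512 CPM in IBD 1 to 4 and at 587, 621, 557 and 515 CPM in VOS2 1 to 4 and did not pass (edgeR adjusted p = 0.6801). Of 17 goblet cell and mucin genes 3 rose. TFF1, a trefoil peptide of mucus, was at 34.1, 21.1, 61.7 and 59.3 CPM in IBD 1 to 4 and at 14.2, 22.3, 13.3 and 12.5 CPM in VOS2 1 to 4. TFF1 rose by 1.5 ± 0.29 on the log2 scale (SE, edgeR adjusted p = 0.0102). ZG16, a lectin of mucus granules, was at 11.8, 1.35, 43.6 and 27.9 CPM in IBD 1 to 4 and at 2.77, 3.29, 1.92 and 0.906 CPM in VOS2 1 to 4. ZG16 rose by 3.23 ± 0.72 on the log2 scale (SE, edgeR adjusted p = 0.0207), a call lost without IBD 4, VOS2 1, VOS2 3 or VOS2 4 and without IBD 3 and 4 together. MUC13 and AGR2 did not pass (edgeR adjusted p = 0.5597 and 0.204).

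Transport, junction and lineage genes had counts in both directions. Of 30 transporters 2 rose and 2 fell. SLC7A9, a cystine and dibasic amino acid transporter, was at 29.1, 23.7, 39.8 and 36.6 CPM in IBD 1 to 4 and at 14.9, 15.8, 13.6 and 11.5 CPM in VOS2 1 to 4. SLC7A9 rose by 1.21 ± 0.16 on the log2 scale (SE, edgeR adjusted p = 0.000768). SLC7A7, a basolateral amino acid exchanger, was at 249.9, 227, 282 and 265 CPM in IBD 1 to 4 and at 392, 378, 463 and 380.4 CPM in VOS2 1 to 4. SLC7A7 fell by 0.66 ± 0.09 on the log2 scale (SE, edgeR adjusted p = 0.000947). SLC2A5, the fructose transporter, was at 5.62, 1.41, 24.4 and 12.9 CPM in IBD 1 to 4 and at 1.62, 2.21, 1.01 and 0.518 CPM in VOS2 1 to 4. SLC2A5 rose by 3.02 ± 0.67 on the log2 scale (SE, edgeR adjusted p = 0.0205), a call lost without IBD 4, VOS2 1, VOS2 3 or VOS2 4 and without IBD 3 and 4 together. Of 34 junction genes 2 rose and 5 fell. PPL, the desmosomal plakin periplakin, was at 91.9, 83.3, 101 and 79.5 CPM in IBD 1 to 4 and at 153, 125, 160.1 and 139 CPM in VOS2 1 to 4. PPL fell by 0.70 ± 0.10 on the log2 scale (SE, edgeR adjusted p = 0.001099). CDH17, the intestinal cadherin, fell by 0.34 ± 0.06 on the log2 scale (SE, edgeR adjusted p = 0.00834), a call lost in the fit of 12 libraries and in the fit of all 16 libraries, and CTNNB1, beta-catenin, rose by 0.36 ± 0.07 on the log2 scale (SE, edgeR adjusted p = 0.0121), a call lost in the fit of 12 libraries and in the fit of all 16 libraries. Of 25 intestinal transcription factors 3 rose and 1 fell, and ELF3, an epithelial ETS factor, rose by 0.63 ± 0.14 on the log2 scale (SE, edgeR adjusted p = 0.0191), a call lost without IBD 4, VOS2 1 or VOS2 4. HNF4A, a master factor of the enterocyte, did not pass, with a log2 difference of 0.34 ± 0.12 (SE, edgeR adjusted p = 0.131). Of 32 stem cell and Wnt genes 1 rose and 4 fell. OLFM4, a secreted crypt protein that NF-kB can induce, was at 1.68, 1.69, 1.47 and 0.952 CPM in IBD 1 to 4 and at 0.262, 0.299, 0.564 and 0.324 CPM in VOS2 1 to 4. OLFM4 rose by 1.99 ± 0.35 on the log2 scale (SE, edgeR adjusted p = 0.004803). BMP4 fell by 0.61 ± 0.10 on the log2 scale (SE, edgeR adjusted p = 0.00268), and SMAD7, an inhibitor of TGF-beta signalling, fell by 0.75 ± 0.14 on the log2 scale (SE, edgeR adjusted p = 0.005904).

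The remaining lists held few genes past the threshold. Of 37 cell cycle genes 1 fell, which is CCND1, and MKI67 stood at 581 ± 24.3 CPM (SD, n = 4) in IBD and 506 ± 47.5 CPM in VOS2 (edgeR adjusted p = 0.167). None of 14 heat shock genes and none of 12 prostaglandin enzyme genes passed in edgeR, where 5 and 2 had an unadjusted p under 0.05, and DESeq2 called 1 in each list. Of 19 p53 targets 1 rose and 1 fell, the latter GADD45A, a DNA damage and stress gene that fell by 0.61 ± 0.10 on the log2 scale (SE, edgeR adjusted p = 0.00383). Of 13 mitochondrial mRNAs 1 fell, MT-ND1, a call lost without IBD 1, IBD 3, IBD 4, VOS2 1, VOS2 2, VOS2 3 or VOS2 4, with RLE size factors, in the fit of 12 libraries, in the fit of all 16 libraries, among non-overlapping genes and without IBD 3 and 4 together. Of 27 nuclear respiratory chain genes 3 rose, COX7A2, UQCRC2 and COX7B, by 0.44, 0.30 and 0.30 on the log2 scale, with the call of COX7A2 lost in the fit of all 16 libraries, with the call of UQCRC2 lost without IBD 1, IBD 4, VOS2 1, VOS2 3 or VOS2 4, in the fit of 12 libraries and in the fit of all 16 libraries, with the call of COX7B lost without IBD 1, IBD 2, IBD 4, VOS2 1, VOS2 2, VOS2 3 or VOS2 4, with library size alone, in the fit of 12 libraries and in the fit of all 16 libraries. Of 9 metallothionein and zinc genes 1 fell, SLC30A1, a zinc exporter that fell by 0.62 ± 0.13 on the log2 scale (SE, edgeR adjusted p = 0.0134), a call lost without IBD 4 and in the fit of all 16 libraries. Of 12 iron genes 1 fell, of 9 keratins 2 fell, and of 11 S100 genes 1 rose and 2 fell. S100A9, a subunit of calprotectin, was at 14.3, 13.8, 11.9 and 18.7 CPM in IBD 1 to 4 and at 6.07, 10.1, 8.07 and 7.06 CPM in VOS2 1 to 4. S100A9 rose by 0.91 ± 0.18 on the log2 scale (SE, edgeR adjusted p = 0.00946). The 2 that fell were S100P, a call lost without VOS2 3 or VOS2 4, and S100A10. The call of S100A10 was lost without IBD 1 or any single VOS2 library, and in the fits of 12 and of all 16 libraries. KCNK15, a potassium channel, and PRSS35, a serine protease-like protein, were the other genes among the 14 largest falls. KCNK15 fell by 1.12 ± 0.17 on the log2 scale (SE, edgeR adjusted p = 0.00178), and PRSS35 fell by 1.12 ± 0.16 on the log2 scale (SE, edgeR adjusted p = 0.00113). Small list counts were unsteady, since 42 of the 47 counts of 1 to 5 genes moved by more than 1.5 times when some single library was left out. So did 4 of the 11 counts above 5 genes, those of hypoxia, glycolysis, cholesterol and fatty acid synthesis, and immediate early genes.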

How the data were processed

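Polyadenylated RNA of Caco-2 cells was sequenced, and the submitters' processing notes name STAR 2.7.11a and featureCounts 2.0.6 with hg38, besides fastp 0.23.4 and FastQC 0.12.1 for read quality and DESeq2 1.42.0. They state no settings, and per the labels' protocols no strand-marking step is named, so strandedness is unknown. The authors deposited raw counts per gene and FPKM for each library. In the IBD and VOS2 tables the gene length implied by counts and FPKM was within 1% of each other for 100% of 5592 genes, and within 1% of the GENCODE v29 gene span for 81.9% of 5573, so reads were counted over whole gene bodies. No row was without a gene name. The counts of the other 2 tables entered alternatives only.

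Libraries were grouped by the code in the column names, 4 against 4. Counts were filtered with filterByExpr, normalised by TMM and tested with edgeR 4.0.16 in R 4.3.3 by the quasi-likelihood F-test, with Benjamini-Hochberg adjustment over all 14322 genes and a threshold of 0.05. All adjusted p-values in the text are from this fit. Log2 CPM used a prior count of 2. Alternatives used DESeq2 1.42.0 and limma 3.58.1, the latter on log2 of the deposited FPKM plus 1 or 0.1. The code was tested on simulated data.

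The 44 gene lists and the genes shown were chosen with earlier results of these data known. Genes were named by rule, as the 14 largest rises and falls among protein-coding genes past the threshold whose groups did not overlap and whose mean log2 CPM was at least 2, the 10 smallest p-values, the 14 with the largest SD within IBD at a mean log2 CPM of at least 5, EGR1, and per list up to 5 past the threshold by smallest p and up to 2 others of highest level. A few genes that this rule names are not reported here. The lists hold 1146 different genes, of which 904 were tested and 198 passed. Depth limits genes near 0, and errors are SD over libraries or SE of the fit.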

Additional observations from a re-analysis of the deposited data

Results flagged for a closer look

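The 143 genes given above or below with a level, a difference or a p of their own make 286 groups of 4 libraries. In 22 of these groups 1 library stood apart from the other 3, by a gap to the nearest one that passed Dixon's test as a share of the group's range. Chance alone gives about 1 in 20 groups. In IBD the highest library was IBD 2 for CCN1 at 52.02 CPM, ICAM1 at 59.5 CPM and TNFRSF9 at 8.81 CPM. It was IBD 4 for AGR2 at 402.5 CPM and MMP7 at 5.46 CPM. The lowest library was IBD 4 for SLC6A9 at 30.6 CPM and BCL2L1 at 254.8 CPM. In VOS2 the highest library was VOS2 3 for SAA1 at 3.33 CPM, BCL2L1 at 383.7 CPM and SLC7A7 at 462.7 CPM. It was VOS2 2 for APOC3 at 33.4 CPM, PPFIA4 at 1.795 CPM and UQCRC2 at 402.2 CPM, and VOS2 4 for SLC30A1 at 156.3 CPM. The lowest was VOS2 2 for ADM2 at 11.9 CPM and EDN1 at 44.3 CPM, and VOS2 1 for MMP7 at 0.0523 CPM. It was VOS2 3 for CDH17 at 771.3 CPM and YAP1 at 325.4 CPM, and VOS2 4 for CTNNB1 at 83.96 CPM, SLC2A1 at 1301.8 CPM and TKT at 435.2 CPM. The gaps ran from 0.8299 of the range for ICAM1 to 0.939 for CCN1.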

How the results depend on the processing

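Genes that overlap another had no value in the fit of genes that overlap none. Of the 151 named genes past the threshold, none changed direction under any alternative that tested them. Of the 151, 90 stayed past the threshold without each single library, 42 under every alternative that tested them, and 111 also in the 16-library fit. Calls were lost for 63 of them on log2(FPKM + 1), 48 on log2(FPKM + 0.1), 82 with a 2-fold limit and 62 with the replicate block. The total of 775 (400 higher, 375 lower) moved by more than 1.5 times under several settings. It was 1342 (805 higher) with no filter on low counts and 1182 (646 higher) by DESeq2. In both 26234 genes had a p-value, but the default filter of DESeq2 can leave genes of low counts out of the adjustment. It was 422 (170 higher) on log2(FPKM + 1), 505 (211 higher) on log2(FPKM + 0.1), and 209 (142 higher, 67 lower) with a 2-fold limit. It was 492 (215 lower) with all 16 libraries, and 301 (of which 124 lower and 177 higher) among the 4817 genes that overlap no other. Without single libraries it ranged from 366 (without VOS2 1) to 1404 (without IBD 2), with 185 to 809 higher and 181 to 595 lower. RLE factors gave 769, library size alone 789, a minimum of 1 CPM 781 and the 12-library fit 674. Where the construction does not show it, as with fewer genes or libraries, the cause was not tested.

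Same-numbered libraries correlated at 0.004, -0.25, -0.125 and -0.021 in their deviations from the group means. These values show no pairing by number, but whether same-numbered libraries shared a batch was not tested. With the replicate number as a block the count was 307 (162 higher, 145 lower).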

Other observations

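Some gene families were looked up after their values had been seen, and 7 of the 8 are given here as values beside the background of 2.79% higher and 2.62% lower. Of 20 cytosolic aminoacyl-tRNA synthetases, which load amino acids onto transfer RNA, 6 fell and none rose, with a median log2 difference of -0.15. The 6 became 2 in the fit of all 16 libraries and 3 to 5 without a single library. Of 11 genes of the 20S proteasome core 2 rose, and of 17 of its 19S cap 1 rose, and with all 16 libraries neither held a call. Of 16 Toll-like receptor and adaptor genes 2 rose and 2 fell, against 1 and 2 with all 16 libraries. Of 16 aldehyde dehydrogenase and retinoid genes 2 rose and 1 fell, of 6 factors of epithelial to mesenchymal transition 1 fell, and of 14 ephrins and Eph receptors 1 rose and 1 fell. Those counts were the same with all 16 libraries. Without a single library the rises ranged from 0 to 4 in the proteasome core, 0 to 3 in its cap and 0 to 4 among ephrins, and the falls among Toll-like receptor genes from 0 to 3.

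CTSS, the lysosomal protease cathepsin S, was at 27.1, 34.7, 34.4 and 40.4 CPM in IBD 1 to 4 and at 10.3, 8.44, 12.5 and 9.52 CPM in VOS2 1 to 4. CTSS rose by 1.74 ± 0.15 on the log2 scale (SE, edgeR adjusted p = 1.67e-05). TNFRSF11A, the receptor RANK, was at 24.7, 25.4, 27.98 and 23.9 CPM in IBD 1 to 4 and at 7.01, 10.9, 7.95 and 7.12 CPM in VOS2 1 to 4. TNFRSF11A rose by 1.63 ± 0.14 on the log2 scale (SE, edgeR adjusted p = 2.6e-05). EDN1, the endothelin 1 peptide, was at 24.1, 29.5, 27.5 and 28.4 CPM in IBD 1 to 4 and at 53.1, 44.3, 54.3 and 52.7 CPM in VOS2 1 to 4. EDN1 fell by 0.90 ± 0.10 on the log2 scale (SE, edgeR adjusted p = 0.000147). The groups did not overlap for these 3 genes. AQP10, a water and glycerol channel, was at 8.02, 0.565, 48.8 and 20.9 CPM in IBD 1 to 4 and at 0.471, 1.26, 0.0564 and 0 CPM in VOS2 1 to 4. AQP10 rose by 5.42 ± 1.08 on the log2 scale (SE, edgeR adjusted p = 0.0117), a call lost without VOS2 3. SLC6A8, the creatine transporter, was at 44.1, 18.5, 168 and 75.4 CPM in IBD 1 to 4 and at 20.8, 15.4, 16.5 and 17.1 CPM in VOS2 1 to 4. SLC6A8 rose by 2.13 ± 0.48 on the log2 scale (SE, edgeR adjusted p = 0.02099), a call lost without IBD 4, VOS2 1, VOS2 2, VOS2 3 or VOS2 4 and without IBD 3 and 4 together. Both were highest in IBD 3 and lowest in IBD 2 among the induced libraries, the order seen for CKB and the hypoxia genes.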
